A study of Mus musculus with 24 samples.

Results

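The miR-23/27/24 clusters are represented here by 7 mature miRNAs chosen by name: mmu-miR-23a-3p, mmu-miR-23b-3p, mmu-miR-27a-3p, mmu-miR-27a-5p, mmu-miR-27b-3p, mmu-miR-24-3p and mmu-miR-24-2-5p. They are 7 of the 1531 mouse miRNAs in the count tables, and all 7 were counted in each of the 24 libraries. The libraries came from CD1 mouse pups of both sexes at postnatal day 9, of which 4 underwent hypoxic-ischemic brain injury (HIBI) and 4 were sham controls. The HIBI pups (1, 4, 5 and 7) had the right common carotid artery cauterized and, after 2 h of recovery, spent 30 min at 8% oxygen. The sham pups (2, 3, 6 and 8) shared the anesthesia and neck dissection, kept an open artery, and spent that time in normal air away from the dam. At 30 min after the injury the right cerebellum, striatum/thalamus and cortex of each pup were taken, so that each region has 4 HIBI and 4 sham libraries, and no group received hypoxia without the ligation.

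Both clusters are transcribed as long primary RNAs from which 3 neighboring hairpins are cut, so that the mature members of a cluster have a common origin. Each hairpin can release a 5p arm and a 3p arm, and usually the arm that is better retained by Argonaute proteins, the guide, is far more abundant than its partner, the passenger. A guide pairs with target mRNAs mainly through its seed, bases 2 to 8, and lowers their translation and stability. The miR-23/27/24 clusters are well known for their expression in endothelial cells and their roles in blood vessel growth, and in the nervous system miR-23a and miR-27a have been studied as brakes on pro-apoptotic mRNAs.

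The mature sequences are shown because the seed defines the target group and because near-identical members limit what a read count can separate. They are from RefSeq (GRCm38.p6), which gave 6 of the 7 members, and the seed is in capitals. Mmu-miR-23a-5p and mmu-miR-3074-5p, which are not members, are added because 2 results below turn on them.
mmu-miR-23a-3p: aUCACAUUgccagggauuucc
mmu-miR-27a-3p: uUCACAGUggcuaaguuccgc
mmu-miR-27b-3p: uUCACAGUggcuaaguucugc
mmu-miR-24-3p: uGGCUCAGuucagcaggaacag
mmu-miR-27a-5p: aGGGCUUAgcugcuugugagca
mmu-miR-24-2-5p: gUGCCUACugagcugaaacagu
mmu-miR-23a-5p: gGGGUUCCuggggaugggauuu
mmu-miR-3074-5p: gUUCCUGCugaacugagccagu

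The sequence of mmu-miR-23b-3p is not printed. Mmu-miR-27a-3p and mmu-miR-27b-3p have the same seed and differ by C19U, counted from 1 at the 5′ end with the base of miR-27a-3p first, so that reads of these miRNAs may have been assigned in part to the wrong one. Mmu-miR-24-2-5p shares its seed and a stretch of 16 bases with mmu-miR-24-1-5p, for which the same holds. The arms of miR-27a have different seeds, and mmu-miR-27a-5p shared at most 9 consecutive bases with any other mature miRNA in the RefSeq table, in this case with mmu-miR-27b-5p. Both arms of miR-27a come from the hairpin Mir27a at chr8:84208672-84208758 on the plus strand, shown with the 5p arm and then the 3p arm in capitals because the comparison of these arms is the main result.
Mir27a: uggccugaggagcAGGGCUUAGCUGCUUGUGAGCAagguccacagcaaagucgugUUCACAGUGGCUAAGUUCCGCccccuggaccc

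The hairpins Mir23a, Mir27a and Mir24-2 lie within chr8:84208518-84208921 (GRCm38.p6, plus strand), a span of 404 bases. In GENCODE M21, Mir23a and Mir27a overlap no other gene, and Mir24-2 overlaps an exon of the long noncoding RNA Gm26532 on the same strand. Mir23b, Mir27b and Mir24-1 lie within chr13:63300484-63301275, a span of 792 bases on the plus strand, inside the protein-coding gene 2010111I01Rik on the same strand and opposite an intron of Fancc. Mir23b falls in an intron of 2010111I01Rik, and Mir27b and Mir24-1 overlap annotated exons of its transcripts. The mature mmu-miR-24-3p is encoded identically by Mir24-2 and Mir24-1, so its count is the sum of both clusters, whereas mmu-miR-24-2-5p comes from the cluster on chromosome 8. On the opposite strand of the miR-24 hairpins, RefSeq annotates miR-3074, and mmu-miR-3074-5p is complementary to mmu-miR-24-3p over 20 of its 22 bases. The handling of strand in the counting is not given in the sources used here, so reads of miR-24 and miR-3074 may not be fully separated.

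The mouse miRNA count of a library ranged from 1254185 to 3406624. Levels are given as CPM, the count scaled to a common library size, after TMM normalization over the 24 libraries, and SD and n refer to libraries. All replicate pairs differed by more than sampling noise, so that none was merged. The 9 lists of cell type markers (24 miRNAs) included 2 neuronal miRNAs, miR-124-3p and miR-128-3p, whose summed level was between 51808 and 141358 CPM in every library, and 2 markers of neural tissue, miR-9-5p and miR-9-3p, with between 23975 and 150582 CPM. The skeletal muscle list (3 miRNAs) reached 345 to 651 CPM in the cerebellum and 28.4 to 141 CPM in the other regions, and the erythrocyte list (3 miRNAs) was between 454 and 1420 CPM. The mural cell list (2 miRNAs) was between 1757 and 5591 CPM, the choroid plexus and ciliated epithelium list (5 miRNAs) between 1883 and 10184 CPM, the oligodendrocyte list (2 miRNAs) between 787 and 8318 CPM, and the myeloid list (3 miRNAs) between 10.6 and 52.2 CPM.

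The 7 members differed widely in abundance, and the guides of the cluster on chromosome 13 exceeded those on chromosome 8. All are 21 or 22 bases long where a sequence was found, so that their CPM compare molecules of nearly the same length, although small-RNA libraries do not capture every sequence equally well. The most abundant was mmu-miR-24-3p with a mean of 4468 CPM over the 24 libraries, rank 37 of all mouse miRNAs, and a range of 2227 to 7734 CPM. It was followed by mmu-miR-27b-3p (mean 1990 CPM, range 959 to 2891 CPM) and mmu-miR-23b-3p (mean 1246 CPM, range 817 to 1600 CPM). Mmu-miR-23a-3p had a mean of 850 CPM and a range of 476 to 1283 CPM. The remaining members were low. Mmu-miR-27a-3p had a mean of 84.4 CPM (range 26.99 to 151 CPM), mmu-miR-24-2-5p had 39.8 CPM (range 13.5 to 67.5 CPM), and mmu-miR-27a-5p had 18.4 CPM (range 2.93 to 50.4 CPM). The count of mmu-miR-27a-5p per library was between 5 and 134, so that its counting error is large. Together, the 7 members took between 0.394% and 1.33% of the mouse miRNA counts of a library.

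**Figure D1:**
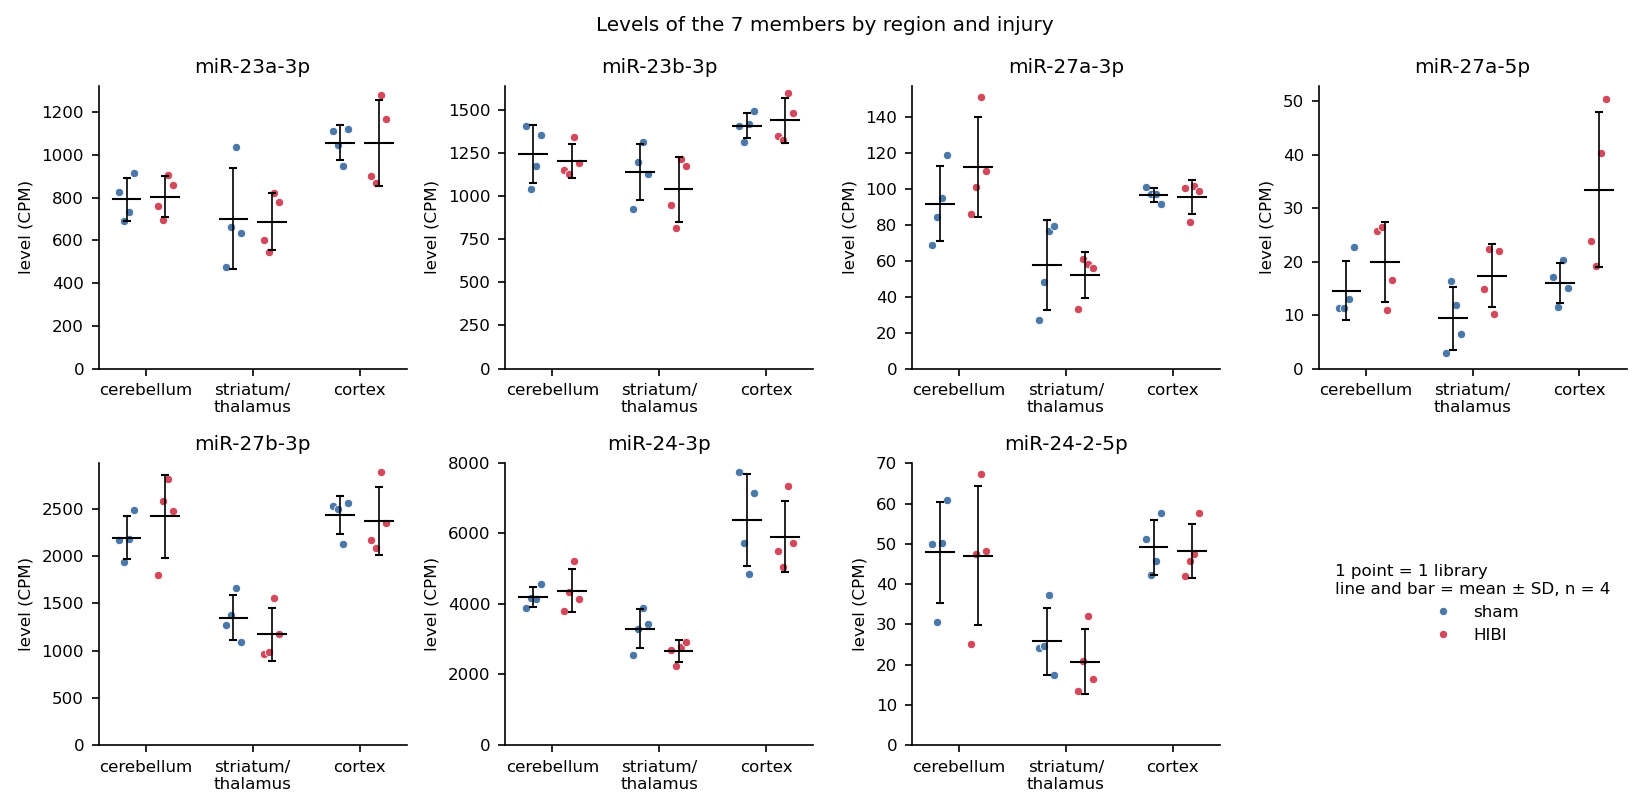
Level of each member in CPM (linear axis from 0) in the 3 regions, with 1 point for each library, sham in blue and HIBI in red, and lines and bars for the mean and SD of 4 libraries. Sham and HIBI libraries overlapped for every member in every region, and the sham mean of each of the 7 was lowest in the striatum/thalamus.

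In the cortex, mmu-miR-27a-5p was higher after HIBI by the criteria of the study, while the other arm of the same hairpin was not. Its level was 17.1, 11.5, 20.2 and 15.1 CPM in sham pups 2, 3, 6 and 8, and 23.8, 19.2, 40.3 and 50.4 CPM in HIBI pups 1, 4, 5 and 7. The sham mean was 16.0 ± 3.67 CPM and the HIBI mean was 33.4 ± 14.5 CPM (SD, n = 4 each). HIBI pups 1, 5 and 7 stood above every sham library, whereas HIBI pup 4 fell just below sham pup 6, so that the groups overlapped by 1 library. These values rest on 36 to 67 counts in the sham libraries and 39 to 134 in the HIBI libraries. The log2 fold change was 1.06 ± 0.34 (SE), or 2.09-fold, with an unadjusted p = 0.00886 in edgeR's quasi-likelihood test, which was rank 6 of the 410 miRNAs tested. After Benjamini-Hochberg adjustment over those 410 the p was 0.606, so the difference did not pass correction. HIBI pups 5 and 7, with the highest levels, also had the deepest of the HIBI cortex libraries (3049198 and 2756951 counts, against 1812883 and 2017170 in pups 1 and 4). The sham cortex libraries of pups 2, 3, 6 and 8 had 2160270, 3277178, 3406624 and 2534005 counts, so that those of pups 3 and 6 were deeper than every HIBI library. The part of depth in the difference was not tested.

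Mmu-miR-27a-3p, the guide arm of the same hairpin, was at 101, 97.0, 97.3 and 91.7 CPM in the sham cortex and 101, 81.8, 101 and 99.0 CPM in the HIBI cortex, in the same order of pups. The groups overlapped, and HIBI pup 4 was the lowest library. Its log2 fold change was -0.02 ± 0.16 (SE, adjusted p = 0.989 by edgeR's quasi-likelihood test). Of the 7 members, mmu-miR-27a-5p was the 1 counted as differentially expressed in the cortex (fold change over 1.5, unadjusted p under 0.05). Among all 410 miRNAs tested, 3.41% met these criteria, and 3.17% met them with a higher level after HIBI. The other members of the cortex had log2 fold changes between -0.12 (mmu-miR-24-3p) and 0.03 (mmu-miR-23b-3p). The median of the 7 was -0.02, equal to that of all miRNAs tested (-0.02).

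**Figure D2:**
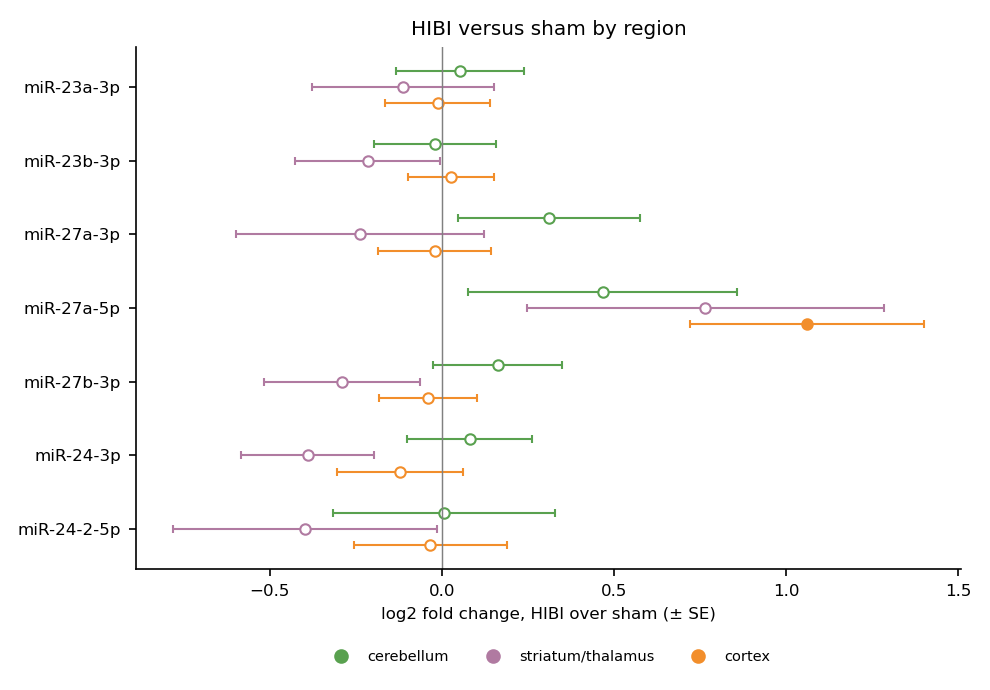
Log2 fold change of HIBI over sham for each member with its standard error, by region, from edgeR's quasi-likelihood test with 4 against 4 libraries. A filled point is a member that met the study's criteria, here mmu-miR-27a-5p in the cortex at 1.06, and its value lay above 0 in all 3 regions.

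In the striatum/thalamus, none of the 7 members met the criteria, beside 2.75% of the 436 miRNAs tested. Mmu-miR-27a-5p was at 2.93, 16.3, 11.9 and 6.43 CPM in sham pups 2, 3, 6 and 8 and at 14.9, 22.3, 10.2 and 21.95 CPM in HIBI pups 1, 4, 5 and 7. Sham pup 2 was low, with 5 counts, and the groups overlapped. The log2 fold change was 0.77 ± 0.52 (SE, unadjusted p = 0.168, adjusted p = 0.980 by edgeR's quasi-likelihood test). The other 6 members had values below 0, from -0.11 for mmu-miR-23a-3p to -0.40 for mmu-miR-24-2-5p. The smallest p was that of mmu-miR-24-3p, a miRNA known to restrain cell proliferation and apoptosis. It was at 2558, 3284, 3891 and 3426 CPM in the sham pups and 2707, 2227, 2785 and 2931 CPM in the HIBI pups. HIBI pup 4 was the lowest and 3 of the 4 sham libraries were above all HIBI libraries, with a log2 fold change of -0.39 ± 0.19 (SE, unadjusted p = 0.0697, adjusted p = 0.980 by edgeR's quasi-likelihood test). The median of the 7 was -0.24, beside -0.03 over all miRNAs tested. Mmu-miR-126a-3p, the defining miRNA of endothelium, had a log2 fold change of -0.45 ± 0.34 (SE, unadjusted p = 0.205, adjusted p = 0.980 by the same test) in these libraries. The tested markers of neurons (-0.40 to -0.35) and neural tissue (-0.42 to -0.34) were also below 0. So were those of oligodendrocytes (-0.62 to -0.61) and skeletal muscle (-0.72 to -0.68). Those of mural cells (0.06 to 0.38) and myeloid cells (0.14) were above 0. Erythrocyte (-0.86 to 0.23) and choroid plexus and ciliated epithelium markers (-0.68 to 0.75) had both signs. The part of any cell type was not tested.

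In the cerebellum, which is exposed to hypoxia but lies outside the territory of the carotid artery, none of the 7 members met the criteria, beside 7.83% of the 434 miRNAs tested. Mmu-miR-27a-5p was at 11.3, 11.3, 12.98 and 22.7 CPM in the sham pups and at 25.7, 26.5, 10.9 and 16.5 CPM in the HIBI pups. HIBI pups 1 and 4 were the highest and HIBI pup 5 was below every sham library, with a log2 fold change of 0.47 ± 0.39 (SE, unadjusted p = 0.254, adjusted p = 0.560 by edgeR's quasi-likelihood test). The pups with the highest levels were therefore 1 and 4 in the cerebellum, and 5 and 7 in the cortex. The other members ranged from -0.02 (mmu-miR-23b-3p) to 0.31 (mmu-miR-27a-3p). The median of the 7 was 0.08, beside 0.11 over all miRNAs tested. With scaling by library size only, the median of all miRNAs in the cerebellum moved from 0.11 to 0.27 and that of the members from 0.08 to 0.23, and upper quartile normalization gave -0.02 and -0.05, so that the signs of the cerebellar values near 0 depended on the scaling.

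The HIBI and sham libraries overlapped for all 7 members in every region, where 3.92% (cerebellum), 1.83% (striatum/thalamus) and 3.41% (cortex) of the miRNAs tested did not overlap. To compare pups rather than libraries, log2(CPM + 1) was averaged over the 3 regions of each pup. On this measure, mmu-miR-27a-5p was higher in all 4 HIBI pups than in all 4 sham pups, with a difference of 0.77 ± 0.20 (SE, n = 4 each). The two-sided exact permutation test gave p = 0.0286, the smallest value that 4 against 4 pups allow, and an adjusted p of 0.986 over 435 miRNAs, of which 1.61% had a p this small. The other 6 members differed by -0.14 to 0.07, with p between 0.229 and 0.943 in the same exact test. The cortical comparison is part of this average, so it is not a separate replication.

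The difference of the injury effect between forebrain (cortex and striatum/thalamus together) and cerebellum passed an adjusted p of 0.05 for 0 of the 7 members in 1 model of the 24 libraries (edgeR's quasi-likelihood test). It passed for 0 of all 435 miRNAs tested (percent called 0), of which 70 had an unadjusted p under 0.05, and none of these was a member. For mmu-miR-27a-5p the log2 difference was 0.53 ± 0.53 (SE, unadjusted p = 0.325, adjusted p = 0.613), and for mmu-miR-24-3p it was -0.27 ± 0.21 (unadjusted p = 0.211, adjusted p = 0.544). The effect on the level of mmu-miR-27a-5p in the cortex alone was not tested against that in the cerebellum. The model of the 24 libraries had no term for the pup, so libraries of the same pup were treated as separate samples.

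The arms of miR-27a were next compared within each library, a ratio that needs no normalization between libraries. The ratio rests on the same counts of mmu-miR-27a-5p as the comparison of its level, so it is not a separate replication. The count of mmu-miR-27a-3p (mean 84.4 CPM) may include misassigned reads of the near-identical mmu-miR-27b-3p (mean 1990 CPM). The ratio and the share of the 5p arm below may therefore not be those of 1 hairpin alone. In the cortex, there were 5.92, 8.44, 4.81 and 6.08 reads of mmu-miR-27a-3p for each read of mmu-miR-27a-5p in sham pups 2, 3, 6 and 8. In HIBI pups 1, 4, 5 and 7 there were 4.23, 4.26, 2.52 and 1.96. Every HIBI library was below every sham library, and the means were 6.31 ± 1.53 in the sham and 3.24 ± 1.18 in the HIBI cortex (SD, n = 4 each). The log2 ratio of counts + 0.5 fell by 1.00 ± 0.32 (SE), to 0.499 of the sham value. The two-sided exact permutation test gave p = 0.0286, the smallest that 4 against 4 libraries allow, and p = 0.343 after Benjamini-Hochberg adjustment over the 12 comparisons of 4 ratios in 3 regions. The members were chosen with earlier results of these data known, which neither value accounts for. Expressed as a share, the 5p arm held between 10.6% (95% Clopper-Pearson interval 7.53% to 14.4%, pup 3) and 17.2% (13.6% to 21.4%, pup 6) of the miR-27a reads in the sham cortex. It held between 19.0% (13.9% to 25.1%, pup 4) and 33.8% (29.1% to 38.6%, pup 7) in the HIBI cortex. These intervals cover counting error only, and those of all 4 sham libraries overlapped the intervals of HIBI pups 1 and 4, whereas those of HIBI pups 5 and 7 lay above them.

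In the striatum/thalamus, the ratio was 9.20, 2.95, 6.40 and 12.4 in the sham pups and 2.24, 2.73, 5.71 and 2.56 in the HIBI pups. Sham pup 3 and HIBI pup 5 crossed over, so the groups overlapped. The log2 difference of HIBI from sham was -1.11 ± 0.53 (SE) (two-sided exact permutation p = 0.0571, adjusted p = 0.343). In the cerebellum, the ratio was 6.12, 7.48, 7.32 and 5.22 in the sham pups and 3.35, 3.83, 13.9 and 6.65 in the HIBI pups. HIBI pup 5 had the highest ratio of all 24 libraries and pups 1 and 4 the lowest of the cerebellum, and the log2 difference was -0.13 ± 0.48 (SE, two-sided exact permutation p = 0.857, adjusted p = 0.914). Whether the fall in the cortex differed from the cerebellum was tested after these values had been seen, with the within-pup difference between the regions. HIBI minus sham was -0.87 on the log2 scale, with p = 0.371 in the two-sided exact permutation test, and the same comparison of the striatum/thalamus with the cerebellum gave -0.98 and p = 0.143.

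**Figure D3:**
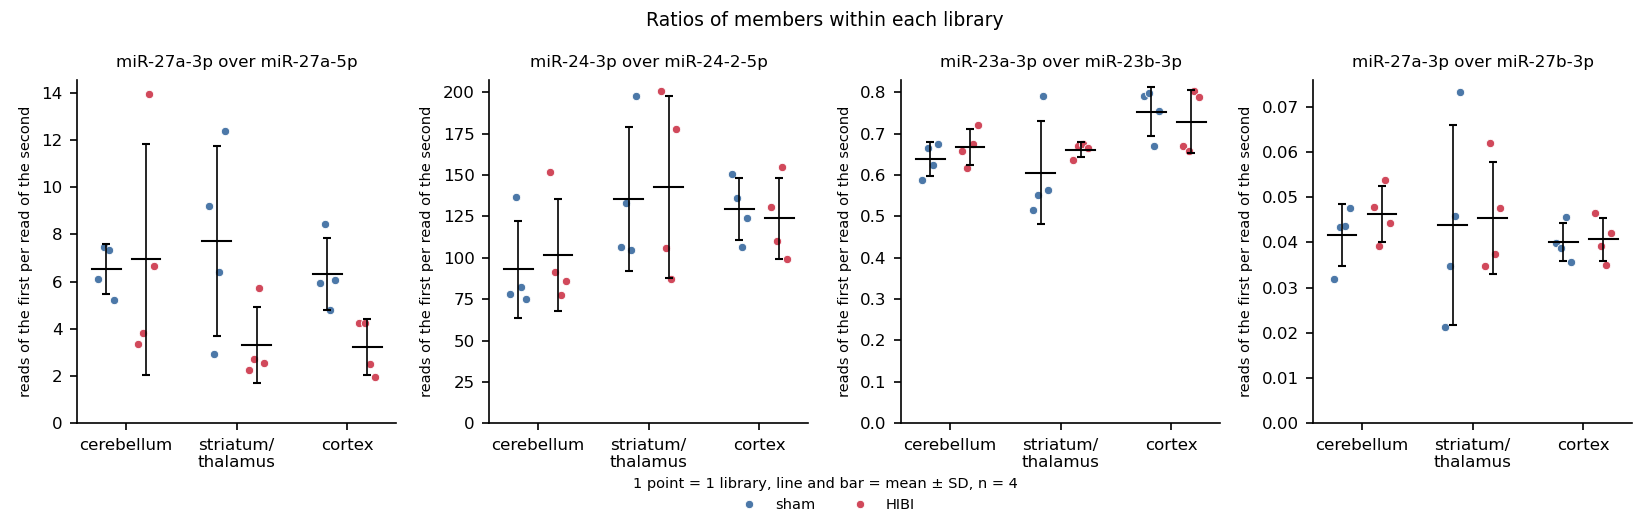
Reads of the first miRNA for each read of the second within a library (linear axes from 0), with 1 point for each library, sham in blue and HIBI in red, and lines and bars for the mean and SD of 4 libraries. In the cortex the miR-27a ratio was 4.81 to 8.44 in the sham and 1.96 to 4.26 in the HIBI libraries, while the other ratios overlapped between groups in every region.

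The other ratios did not separate HIBI from sham. In the cortex, there were 129 ± 18.8 reads of mmu-miR-24-3p for each read of mmu-miR-24-2-5p in sham and 124 ± 24.5 in HIBI libraries (SD, n = 4 each). Mmu-miR-23a-3p had 0.753 ± 0.060 and mmu-miR-27a-3p had 0.0400 ± 0.0042 reads for each read of its relative on chromosome 13 in the sham cortex. In the HIBI cortex these were 0.729 ± 0.076 and 0.0407 ± 0.0048. Over the 3 regions, the log2 differences of these 3 ratios were between -0.07 and 0.16, with two-sided exact permutation p from 0.343 to 0.914 and an adjusted p of 0.914 for each. When the near-identical pairs were summed, miR-23a-3p with miR-23b-3p and miR-27a-3p with miR-27b-3p, neither sum met the criteria in any region. Their log2 fold changes after HIBI were between -0.29 and 0.17.

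The remaining arms of the 6 hairpins and the antisense miR-3074 were followed as a fixed list of 7 further miRNAs. None of the 7 met the study's criteria for HIBI in any region, which also require an average above 10 CPM. Without that minimum, 0 of the 4 arms and 1 of the 3 antisense miRNAs passed the fold change and the unadjusted p, the 1 in the cortex, where 3.41% of the miRNAs above 10 CPM did. The passenger arms mmu-miR-23a-5p, mmu-miR-23b-5p and mmu-miR-27b-5p had means of 11.5, 15.0 and 10.8 CPM over the 24 libraries, and mmu-miR-24-1-5p had 2.71 CPM with 2 libraries at 0. In the cortex, mmu-miR-23a-5p, the passenger arm of the neighboring hairpin, was at 12.6, 10.9, 13.9 and 10.9 CPM in the sham pups and 9.97, 8.86, 20.2 and 27.1 CPM in the HIBI pups. HIBI pups 5 and 7 were again above every sham library and pups 1 and 4 below, and it had a log2 fold change of 0.46 ± 0.36 (SE, unadjusted p = 0.232, adjusted p = 0.938 by edgeR's quasi-likelihood test over 413 miRNAs). Mmu-miR-27b-5p, the counterpart of miR-27a-5p on chromosome 13, had 0.39 ± 0.30 (unadjusted p = 0.222, adjusted p = 0.916). The antisense mmu-miR-3074-1-3p had 4, 10, 10 and 6 counts in the sham cortex and 1, 0, 1 and 1 in the HIBI cortex. All HIBI libraries were below all sham libraries, as for 3.41% of the cortical miRNAs above 10 CPM without overlap, with 3 counts against 30 in all, and a ratio of 0.118 relative to the library totals (95% exact interval 0.0231 to 0.380, counting error only). It lies far below the minimum of 10 CPM, was kept in the fit as a listed miRNA, and had an unadjusted p = 0.000733 and an adjusted p = 0.121 by edgeR's quasi-likelihood test. Mmu-miR-3074-5p (mean 324 CPM) had log2 fold changes after HIBI between -0.18 (striatum/thalamus) and -0.03 (cerebellum), and none met the criteria.

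Among the sham libraries, the mean of each of the 7 members was lowest in the striatum/thalamus. Of the 7 members, 4 were higher in the cortex than in the striatum/thalamus at an adjusted p under 0.05 (edgeR's quasi-likelihood test over the 12 sham libraries) and none was lower. Among all 423 miRNAs tested, 38.5% differed between these regions and 16.5% were higher in the cortex. Members of a cluster share a primary RNA and near-identical members may share reads, so that the 4 are not independent of each other. The median log2 fold change of the 7 was 0.65, beside -0.06 over all miRNAs tested. In bulk tissue, a lower level may stem from fewer cells of a type or from less RNA per cell, which cannot be told apart.

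Mmu-miR-24-3p, the guide encoded by both clusters, was at 7734, 5741, 4862 and 7154 CPM in the cortex of sham pups 2, 3, 6 and 8. In the striatum/thalamus it was at 2558, 3284, 3891 and 3426 CPM, and in the cerebellum at 3898, 4181, 4138 and 4557 CPM. All cortex libraries were above all libraries of the other regions, and those of the striatum/thalamus were all below those of the cerebellum. It was higher in the cortex than in the striatum/thalamus by 0.87 ± 0.18 (log2, SE), or 1.82-fold, with an adjusted p = 0.00172. It was higher in the cortex than in the cerebellum by 0.57 ± 0.18 (adjusted p = 0.0122), and its log2 difference between the striatum/thalamus and cerebellum was -0.30 ± 0.18 (adjusted p = 0.144). Its antisense mmu-miR-3074-5p was higher in the cortex than in the striatum/thalamus by 0.67 ± 0.17 (adjusted p = 0.00793), and its difference of the striatum/thalamus from the cerebellum was -0.45 ± 0.17 (adjusted p = 0.0315).

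Mmu-miR-27b-3p, the dominant miR-27 guide, was at 2532, 2502, 2130 and 2566 CPM in the sham cortex and 2165, 1938, 2178 and 2491 CPM in the sham cerebellum. It was at 1268, 1381, 1663 and 1087 CPM in the striatum/thalamus, below every library of the other regions. The difference of cortex from striatum/thalamus was 0.76 ± 0.15 (log2, SE), or 1.69-fold (adjusted p = 0.00159), and that of striatum/thalamus from cerebellum was -0.64 ± 0.15 (adjusted p = 0.00176). The cortex and cerebellum differed by 0.11 ± 0.15 (adjusted p = 0.547). Summed with miR-27a-3p, which it exceeded by a wide margin, the values were 0.75 (adjusted p = 0.00151) and -0.64 (adjusted p = 0.00160).

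Mmu-miR-24-2-5p, the passenger arm made from chromosome 8 alone, was at 51.3, 42.1, 45.6 and 57.8 CPM in the sham cortex, 24.1, 24.7, 37.2 and 17.3 CPM in the striatum/thalamus and 49.9, 30.6, 50.1 and 60.8 CPM in the cerebellum. The striatum/thalamus was below the cortex in every library, while pup 3 of the cerebellum fell below pup 6 of the striatum/thalamus. It was higher in the cortex than in the striatum/thalamus by 0.84 ± 0.27 (log2, SE; adjusted p = 0.0240) and its difference of the striatum/thalamus from the cerebellum was -0.83 ± 0.27 (adjusted p = 0.0147). Mmu-miR-23a-3p was at 1114, 1049, 948 and 1124 CPM in the sham cortex and 476, 662, 1036 and 636 CPM in the striatum/thalamus, where pup 6 reached the cortical range. Its difference of 0.51 ± 0.19 (log2, SE) was at the edge of the threshold (adjusted p = 0.0460).

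The remaining members did not pass. Mmu-miR-27a-3p differed between the cortex and striatum/thalamus by 0.65 ± 0.28 (log2, SE; adjusted p = 0.0793), mmu-miR-27a-5p by 0.65 ± 0.43 (adjusted p = 0.256) and mmu-miR-23b-3p by 0.21 ± 0.15 (adjusted p = 0.285). Mmu-miR-23b-3p had sham means of 1408 ± 73.1, 1140 ± 164 and 1245 ± 169 CPM in the cortex, striatum/thalamus and cerebellum (SD, n = 4 each). Between the striatum/thalamus and cerebellum, 2 of the 7 members were lower in the striatum/thalamus, beside 65.2% of all 423 miRNAs that differed and 31.2% that were lower. Between the cortex and cerebellum, 1 of the 7 differed, beside 64.8% of all miRNAs. The share of members called was therefore below that of all miRNAs in the comparison of the cortex with the cerebellum and close to it for lower levels in the striatum/thalamus.

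Because the same pup gave all 3 regions, the regions were also compared with the pup as a block. With the block, mmu-miR-23a-3p no longer passed between the cortex and striatum/thalamus (0.53, adjusted p = 0.0583), and mmu-miR-27a-3p passed (0.75, adjusted p = 0.0429). Mmu-miR-27a-3p also passed as lower in the striatum/thalamus than in the cerebellum with the block (-0.66, adjusted p = 0.0432). In the comparison of the cortex with the cerebellum, the call of mmu-miR-24-3p was lost without sham pup 2 (0.37, adjusted p = 0.116), and between the striatum/thalamus and cerebellum both calls were lost without sham pup 8 (mmu-miR-27b-3p -0.47, adjusted p = 0.0620; mmu-miR-24-2-5p -0.52, adjusted p = 0.183), where mmu-miR-24-2-5p was also lost without pup 2 (adjusted p = 0.0623). Between the cortex and striatum/thalamus, mmu-miR-23a-3p and mmu-miR-24-2-5p were each lost without pup 2, 3 or 8 (adjusted p from 0.163 to 0.290 and from 0.0593 to 0.164), whereas mmu-miR-27b-3p and mmu-miR-24-3p passed without any 1 pup.

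**Figure D4:**
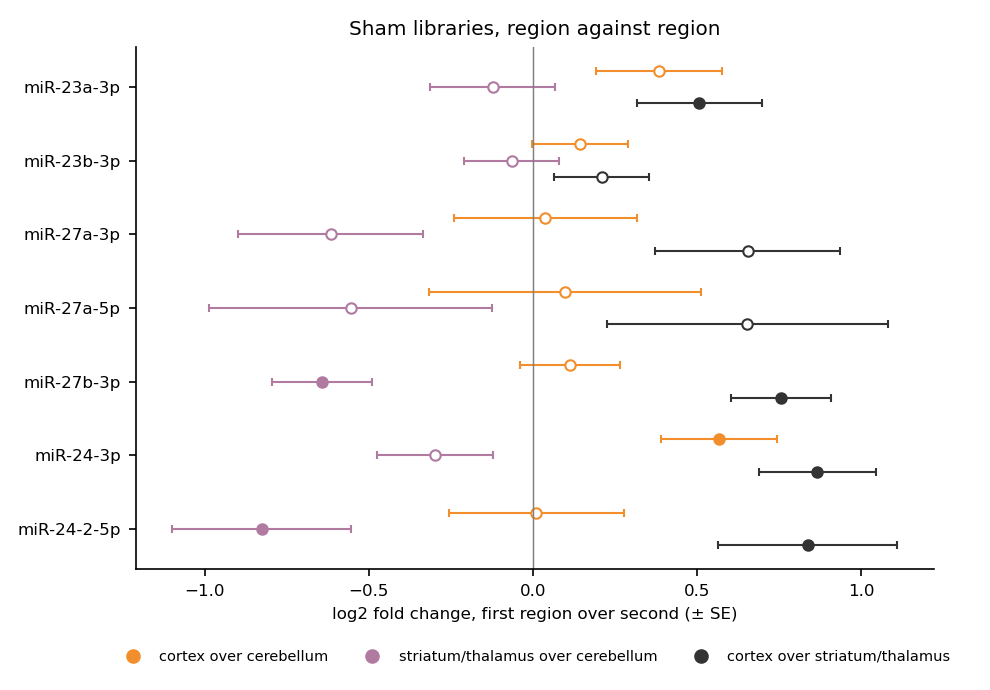
Log2 fold change between regions in the sham libraries for each member with its standard error, from edgeR's quasi-likelihood test over 12 libraries, where a filled point has an adjusted p under 0.05. The cortex exceeded the striatum/thalamus by 0.21 to 0.87 for the 7 members, and 4 of these differences passed.

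The endothelial and mural cell markers were also lowest in the striatum/thalamus by their sham medians. The mural cell list had a median of 2099 CPM in the striatum/thalamus, 3063 CPM in the cerebellum and 3030 CPM in the cortex, whereas the oligodendrocyte list was higher in the striatum/thalamus (2971 CPM) than in the cortex (1472 CPM). Mmu-miR-126a-3p and mmu-miR-126a-5p, neither at 0 in any group, had a summed level of 1237 to 3126 CPM in the sham striatum/thalamus, 2112 to 4040 CPM in the cerebellum and 2744 to 3738 CPM in the cortex. Mmu-miR-126a-3p was higher in the cortex than in the striatum/thalamus by 0.69 ± 0.26 (log2, SE; adjusted p = 0.0447 by edgeR's quasi-likelihood test). Its difference of the striatum/thalamus from the cerebellum was -0.60 ± 0.26 (adjusted p = 0.0504 by the same test) and did not pass. The myeloid list also had its lowest sham median in the striatum/thalamus (19.4 CPM). So had the choroid plexus and ciliated epithelium list (2200 CPM, beside 2236 CPM in the cortex and 4629 CPM in the cerebellum). The erythrocyte and skeletal muscle lists had their lowest in the cortex (620 and 46.4 CPM). The neuron list had its lowest in the cerebellum (65924 CPM, beside 71785 CPM in the striatum/thalamus). The markers of neural tissue were also lower in the striatum/thalamus (31025 to 73240 CPM) than in most libraries of the sham cortex (68227 to 93656 CPM), and those of neurons were 60904 to 89975 CPM against 125009 to 141358 CPM. Their part in the regional differences of the members was not tested. For HIBI against sham in the cortex, 0 of the 17 markers tested met the criteria, beside 3.41% of all miRNAs. In the cerebellum 2 of 19 met them, 1 of the skeletal muscle and 1 of the erythrocyte list, beside 7.83% of all miRNAs, and in the striatum/thalamus 1 of 19 did, from the choroid plexus and ciliated epithelium list, beside 2.75%.

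Some ratios of members differed between regions in the same direction in 7 or 8 of 8 pups, but no difference passed the adjustment. The ratio of mmu-miR-23a-3p to mmu-miR-23b-3p was higher in the cortex than in the cerebellum in 8 of 8 pups, by 0.18 ± 0.05 on the log2 scale (SE), or 1.13-fold. The two-sided exact sign-flip permutation test gave p = 0.0078, the smallest that 8 pups allow, and p = 0.0938 after adjustment over 12 comparisons. There were more reads of mmu-miR-24-3p for each read of mmu-miR-24-2-5p in the cortex than in the cerebellum in 7 of 8 pups (0.42 ± 0.16, exact p = 0.0234, adjusted p = 0.0938) and in the striatum/thalamus than in the cerebellum in 7 of 8 pups (0.49 ± 0.17, exact p = 0.0156, adjusted p = 0.0938). For the arms of miR-27a, the regions differed by -0.49 to -0.05 with exact permutation p of 0.188 or above, and the ratio of mmu-miR-27a-3p to mmu-miR-27b-3p differed by -0.12 to -0.05 with exact p of 0.297 or above. None of the 12 passed the adjustment.

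The members varied together between libraries of the same group to differing degrees. The correlation over all pairs of miRNAs was not computed, so these values do not show a trait particular to the members. Over the 24 libraries, the deviations of log2(CPM + 1) from the mean of the own group had a Pearson correlation with a median of 0.52 over the 21 pairs of members. These are descriptions across libraries that share pups, depth and normalization. The highest was 0.87, between mmu-miR-23a-3p and mmu-miR-23b-3p, which come from different chromosomes and may share reads. The 6 pairs with mmu-miR-27a-5p ranged from 0.00089 to 0.36 with a median of 0.24, beside 0.36 for mmu-miR-24-3p with mmu-miR-24-2-5p, and its correlation with mmu-miR-27a-3p from the same hairpin was 0.30. Mmu-miR-27a-5p had higher values with 2 other low passenger arms, mmu-miR-23a-5p (0.75) from the same cluster, whose counts per library ran from 1 to 72, and mmu-miR-23b-5p (0.45) from chromosome 13. With the passenger arms mmu-miR-27b-5p (0.28) and mmu-miR-24-2-5p (0.00089) its values were not higher than with the other members. Mmu-miR-126a-3p correlated with the 6 other members at 0.64 to 0.81, and with mmu-miR-27a-5p at 0.24.

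**Figure D5:**
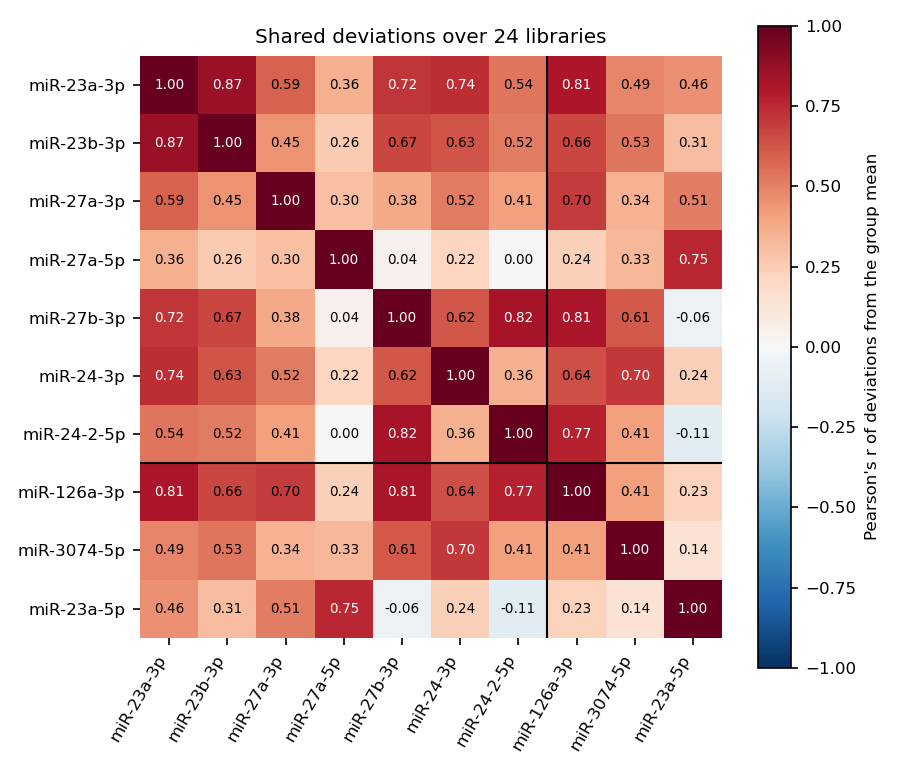
Pearson's r of deviations from the group mean over 24 libraries for the 7 members and, beyond the lines, mmu-miR-126a-3p, mmu-miR-3074-5p and mmu-miR-23a-5p, with red for positive and blue for negative values. The row of mmu-miR-27a-5p is pale against the other members (0.00089 to 0.36) and dark against mmu-miR-23a-5p (0.75).

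Over the levels themselves, the miRNA most like each member among 428 others above 10 CPM was named, again as a description over 24 libraries with shared pups and depth. For mmu-miR-27a-5p these were miR-23a-5p (r = 0.70), miR-181c-5p (0.51) and miR-22-5p (0.50). For mmu-miR-27a-3p they were miR-126a-3p (0.88), miR-21a-5p (0.84) and miR-22-3p (0.82), so that the arms of this hairpin shared none of their 3 closest miRNAs. Mmu-miR-27b-3p was closest to let-7j (0.96), let-7i-5p (0.94) and miR-22-3p (0.93), and mmu-miR-24-2-5p to let-7i-5p (0.94), miR-9-5p (0.94) and let-7j (0.92). Mmu-miR-24-3p was closest to miR-22-3p (0.90), its antisense miR-3074-5p (0.88) and let-7j (0.82). Mmu-miR-23a-3p was closest to miR-128-3p (0.76), miR-126a-3p (0.76) and miR-331-5p (0.74), and mmu-miR-23b-3p to miR-30e-3p (0.78), miR-3074-5p (0.76) and miR-27b-5p (0.75).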

How the data were processed

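MiRNA-Seq libraries were made by the authors from 200 ng of RNA of each region of each pup. The files deposited by the authors hold, for every library, a raw count per mature miRNA after Bowtie2 alignment to the mouse set of miRBase. The versions, the miRBase release, the strand setting and the treatment of multi-mapping reads are not given in the sources used here. The same tables hold the log2 fold change, average log2 CPM, p-value and false discovery rate of the authors' own edgeR comparison, which were not used. Of 1551 entries, 20 from another species with 84 counts were left out, and the other 1531 are mouse miRNAs.

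Models were fitted in R 4.3.3 using edgeR 4.0.16 (glmQLFit and glmQLFTest) and DESeq2 1.42.0 as an alternative. MiRNAs with an average above 10 CPM were kept, together with any member below it (none was), and libraries were scaled by TMM. HIBI was compared with sham within each region from its 8 libraries, and the study's criteria were applied (fold change over 1.5, unadjusted p-value under 0.05, average above 10 CPM). Regions were compared in the 12 sham libraries by an adjusted p under 0.05, and the difference of the injury effect in all 24. Benjamini-Hochberg adjustment covered all miRNAs tested. Single values were compared with two-sided exact permutation tests (70 arrangements of 4 against 4, 256 sign flips over 8 pups) in Python 3.11.15. The code was tested on simulated counts.

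The 7 members were named in full, with the other arms and antisense miRNAs of the same hairpins, and the 3 miRNAs closest to each member by correlation. The members and all lists were chosen with earlier results of these data known. The same animal gave the 3 regions. Ratios were compared between regions within pups. The main fits of levels between regions and of the forebrain-cerebellum difference had no term for the pup, which entered as a block in an alternative. Over 435 miRNAs, departures from the group mean in the same pup correlated between regions with medians of 0.27 (cortex and cerebellum), 0.16 (striatum/thalamus and cerebellum) and 0.19 (cortex and striatum/thalamus). The alternatives were other scalings and CPM minimums, DESeq2, edgeR's exact test, the pup as a block, another pseudocount and leaving out each pup.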

Additional observations from a re-analysis of the deposited data

Results flagged for a closer look

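Of 66 sets of 4 libraries (7 members and 4 ratios in 6 groups), 5 held 1 library apart from the other 3 by Dixon's test, where chance flags about 1 in 20. Mmu-miR-27a-3p in the HIBI cortex was low in pup 4, at 81.8 CPM beside 99.0 to 101 CPM (gap over range 0.875). Mmu-miR-27a-5p in the sham cerebellum was high in pup 8, at 22.7 CPM beside 11.3 to 12.98 CPM (0.851). Mmu-miR-27b-3p in the sham cortex was low in pup 6, at 2130 CPM beside 2502 to 2566 CPM (0.852). The ratio of miR-27a-3p to miR-27a-5p in the HIBI striatum/thalamus was high in pup 5, at 5.71 beside 2.24 to 2.73 (0.859). The ratio of miR-24-3p to miR-24-2-5p in the sham cerebellum was high in pup 3, at 137 beside 75.0 to 82.6 (0.876).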

How the results depend on the processing

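The call of mmu-miR-27a-5p in the cortex was kept under all 14 alternatives (log2 fold change 0.81 to 1.23, unadjusted p 0.0012 to 0.039, adjusted p 0.106 to 0.996), and the number of members called for HIBI was 0, 0 and 1 without any 1 pup. None of the values that changed sign was called. These were, by library size, miR-23b-3p (0.15) in the cerebellum, miR-23a-3p (0.0086) in the cortex, and miR-23b-3p (0.0044) and miR-27b-3p (0.012) in pup means; by upper quartile, miR-23a-3p (-0.074), miR-24-3p (-0.046) and miR-24-2-5p (-0.12) in the cerebellum, and miR-23a-3p (0.0034) and miR-23b-3p (0.045) in the forebrain-cerebellum difference. DESeq2 gave -0.0080 for miR-24-2-5p in the cerebellum and 0.0041 for miR-23a-3p in the cortex. With no CPM minimum, values were -0.031 for miR-24-2-5p in the cerebellum and, in the cortex, 0.031 (miR-23a-3p), 0.020 (miR-27a-3p), 0.0010 (miR-27b-3p) and 0.012 (miR-24-2-5p). Between sham cortex and cerebellum, 2 members were called by library size, with a minimum of 1 CPM and with none, where miR-23a-3p was added, 0 in the HIBI libraries (miR-27a-3p -0.30, miR-27b-3p -0.095, miR-24-2-5p -0.039), and 0 to 2 without a pup. Between striatum/thalamus and cerebellum, 4 were called by upper quartile and in the HIBI libraries, where miR-27a-3p and miR-24-3p were added, and 0 to 2 without a pup; between cortex and striatum/thalamus, 2 to 4. In the last comparison miR-27a-3p passed by upper quartile, DESeq2, the lower CPM minimums and in the HIBI libraries (0.72 to 0.94). With the pup as a replicate block, miR-23a-3p (0.53) lost its call between cortex and striatum/thalamus and miR-27a-3p gained it (0.75, and -0.66 between striatum/thalamus and cerebellum), and no other call changed. Unpaired sham libraries gave miR-24-3p/miR-24-2-5p 0.51 (cortex against cerebellum, exact p 0.0857) and 0.53 (striatum/thalamus against cerebellum, exact p 0.143), miR-23a-3p/miR-23b-3p 0.24 (exact p 0.0571), miR-27a-3p/miR-27a-5p 0.044 (striatum/thalamus against cerebellum, -0.45 within pups) and miR-27a-3p/miR-27b-3p 0.00032 (cortex against striatum/thalamus). With 5 added to counts, cortex against striatum/thalamus was 0.10 for miR-27a-3p/miR-27a-5p and 0.030 for miR-24-3p/miR-24-2-5p, which was -0.024 for HIBI in the striatum/thalamus. Leaving out 1 pup at a time gave, for HIBI in the cerebellum, miR-23a-3p -0.013 to 0.14, miR-23b-3p -0.11 to 0.041, miR-24-3p -0.0096 to 0.12, miR-24-2-5p -0.22 to 0.20, for HIBI in the striatum/thalamus miR-23a-3p -0.26 to 0.22, miR-27a-3p -0.47 to 0.068 (-0.24 with all pups, above 0 without pup 1, 6 or 8), for HIBI in the cortex miR-23a-3p -0.11 to 0.071, miR-23b-3p -0.020 to 0.072, miR-27a-3p -0.043 to 0.023, miR-27b-3p -0.14 to 0.014, miR-24-3p -0.24 to 0.0067, miR-24-2-5p -0.11 to 0.066, for sham cortex against cerebellum miR-27a-3p -0.15 to 0.29, miR-27a-5p -0.086 to 0.49, miR-24-2-5p -0.052 to 0.23, for sham striatum/thalamus against cerebellum miR-23a-3p -0.37 to 0.027, miR-23b-3p -0.14 to 0.050, for the forebrain-cerebellum difference miR-23a-3p -0.12 to 0.10, miR-23b-3p -0.11 to 0.065. For ratios these ranges were miR-27a-3p/miR-27a-5p (striatum/thalamus against cerebellum) -0.68 to -0.31 with an exact p of 0.0469 without pup 8, miR-27a-3p/miR-27a-5p (cortex against striatum/thalamus) -0.27 to 0.11, miR-24-3p/miR-24-2-5p (cortex against striatum/thalamus) -0.20 to 0.036, miR-27a-3p/miR-27b-3p (striatum/thalamus against cerebellum) -0.15 to 0.026, miR-27a-3p/miR-27b-3p (cortex against striatum/thalamus) -0.20 to 0.072. The cause of these changes was not tested. With 4 pups a group, exact tests cannot go below 0.0286, or 0.0571 without a pup, and miR-27a-5p had 5 to 134 counts a library.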
